A study of Homo sapiens with 8 samples.

Results

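The genes described here are 9 members of the zinc-handling machinery, taken by symbol from the 61517 genes of a count table of KYSE150 cells, a human esophageal squamous cell carcinoma line. They are the metallothionein genes MT2A, MT1E, MT1X, MT1F, MT1G and MT1M, the transcription factor gene MTF1, the zinc exporter gene SLC30A1 and the zinc importer gene SLC39A10. Every one of the 9 symbols was found once in the table. Poly(A)-selected RNA was sequenced in 8 libraries, 2 for each of 4 groups. The groups were hypoxia with sodium oxamate and NALA, hypoxia with sodium oxamate, hypoxia without drug, and normoxia without drug. NALA is the labels' abbreviation and was read as sodium lactate, the other agent that the labels' treatment protocol names; it is called lactate below. Oxamate, a pyruvate analogue, inhibits lactate dehydrogenase, so cells given it form less lactate. All groups were the same line in the same serum-supplemented medium, and no dose, oxygen level or duration is stated in the labels. Nothing in the labels ties the paired libraries of a group to separate cultures, and every p-value therefore reflects library-to-library spread alone, possibly only technical.

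Zinc is bound inside cells by metallothioneins, small cysteine-rich proteins that also bind copper and cadmium. MTF1 senses free zinc through its zinc fingers, binds metal response elements and drives transcription of metallothionein genes and of SLC30A1, whose product (ZnT1) carries zinc out across the plasma membrane. SLC39A10 encodes ZIP10, which carries zinc into the cytosol, and in mouse cells MTF1 is known to repress Slc39a10 when zinc is plentiful. Metallothionein genes are also known to respond to hypoxia, glucocorticoids and oxidants.

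The 6 metallothionein members lie together on chromosome 16 (GRCh38, GENCODE release 29), with MT2A (ENSG00000125148) from 56608199 to 56609497, MT1E (ENSG00000169715) from 56625475 to 56627112, MT1F (ENSG00000198417) from 56657694 to 56660698 and MT1X (ENSG00000187193) from 56682424 to 56684196. MT1M (ENSG00000205364) runs from 56632233 to 56633986 and MT1G (ENSG00000125144), the only member of this cluster on the minus strand, from 56666731 to 56668065. SLC30A1 (ENSG00000170385) lies on chromosome 1 from 211571568 to 211578742 and MTF1 (ENSG00000188786) on the same chromosome from 37809567 to 37859620. SLC39A10 (ENSG00000196950) lies on chromosome 2 from 195575977 to 195737702. All 9 are annotated as protein-coding, and of them MT1X alone shares exon bases with another gene, the scarcely counted AC026461.1 (18.1% of its exon bases, same strand, 0.5 counts on average against 6145 for MT1X).

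The upstream bases printed below are those of MT2A, MT1X and SLC30A1. Among the 5 members with an upstream sequence at hand, these rose most with oxamate against hypoxia. They are also the only ones of the 5 in which a metal response element core was found. MTF1 and SLC39A10, which changed more with lactate added to oxamate, are not printed. RefSeq upstream sequences (GRCh38.p14) were matched for 5 of the 9 members, MT2A, MT1X, SLC30A1, MTF1 and SLC39A10. Both strands of the 250 bases before each transcript start were searched for the core of the metal response element, spelled TGCACNC or TGCGCNC, which is the kind of site MTF1 binds. MT2A held 7 matches, MT1X 4, SLC30A1 1, and MTF1 and SLC39A10 0. At least 1 match was present in 24.7% of 27305 upstream windows of this length, at least 4 in 0.366% and at least 7 in 0.033%. The upstream bases of MT2A at chr16:56608334-56608583 (plus strand), of MT1X at chr16:56682220-56682469 (plus strand) and of SLC30A1 at chr1:211579162-211579411 (minus strand) are given on the gene's strand, 5′ to 3′, with the metal response element cores of either strand in capitals.
MT2A: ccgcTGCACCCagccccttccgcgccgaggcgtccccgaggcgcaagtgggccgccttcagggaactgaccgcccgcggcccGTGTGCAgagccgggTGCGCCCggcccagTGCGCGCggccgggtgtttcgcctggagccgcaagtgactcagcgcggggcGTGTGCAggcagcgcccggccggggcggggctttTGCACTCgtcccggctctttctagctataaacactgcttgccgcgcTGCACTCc
MT1X: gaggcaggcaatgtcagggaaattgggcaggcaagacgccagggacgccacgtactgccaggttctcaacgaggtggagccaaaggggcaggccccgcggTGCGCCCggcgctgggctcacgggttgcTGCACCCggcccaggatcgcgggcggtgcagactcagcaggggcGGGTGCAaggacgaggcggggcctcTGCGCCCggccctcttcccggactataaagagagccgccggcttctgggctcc
SLC30A1: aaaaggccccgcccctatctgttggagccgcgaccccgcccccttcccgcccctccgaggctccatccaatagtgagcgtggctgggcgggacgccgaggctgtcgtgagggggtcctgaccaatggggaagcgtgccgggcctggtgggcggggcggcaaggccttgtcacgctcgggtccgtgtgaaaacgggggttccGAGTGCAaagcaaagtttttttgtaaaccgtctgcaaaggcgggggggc
The core of the hypoxia response element, spelled ACGTG or GCGTG, matched 3 times in SLC30A1, 2 times in MTF1 and once each in MT2A, MT1X and SLC39A10, while 43.1% of all windows held at least 1. The match in MT2A overlaps one of its metal response element cores. RefSeq starts differ from the GENCODE gene bounds above, and the MT2A and SLC39A10 windows lie within their GENCODE genes. The SLC30A1 window lies upstream of its GENCODE gene without reaching it. The bases after its RefSeq start were not found in a GENCODE transcript of SLC30A1. The bases next to the GENCODE start of SLC30A1 were therefore not searched. A match is a run of letters and not a measured binding site.

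**Figure D1:**
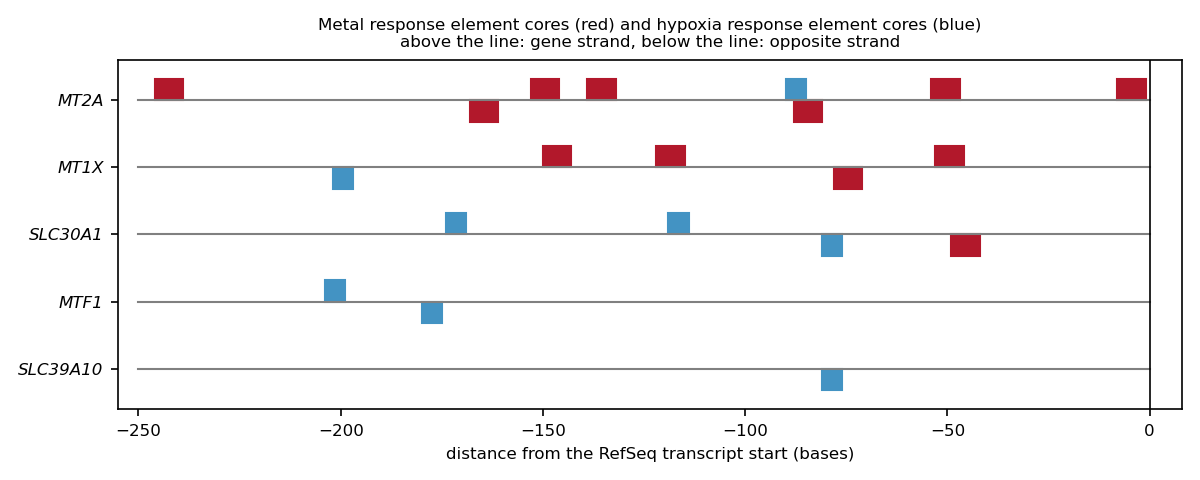
Position of metal response element cores (red) and hypoxia response element cores (blue) in the 250 bases before the RefSeq transcript start of 5 members, in bases from the start. Boxes above a line are matches on the gene's strand and boxes below it on the opposite strand; MT2A carries 7 red boxes, MT1X 4 and SLC30A1 1.

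Total counts per library ran from 21845676 to 29406061. Genes were tested with the quasi-likelihood F test of edgeR, and 15554 genes had enough counts, among them 7 of the 9 members. Levels are counts scaled to TMM-adjusted library size (CPM), given as mean ± SD over 2 libraries, and differences are fitted log2 fold changes ± SE. A gene passed at a Benjamini-Hochberg adjusted p under 0.05 over all tested genes. Most tested genes passed in every comparison, so the size of a change says more than the call. Of 10 squamous epithelial markers, 9 had counts in every library and SOX2 did not exceed 0.407 CPM. Of 8 leukocyte markers, CD68 alone exceeded 2 CPM, with a summed level of 86.2 to 101 CPM in the 4 oxamate libraries, 110 and 117 CPM in hypoxia and 34.7 and 38.2 CPM in normoxia. Fibroblast and endothelial markers summed to 1.47 to 2.59 CPM in the 4 oxamate libraries, 9.67 and 10.0 CPM in hypoxia and 3.72 and 3.76 CPM in normoxia. COL3A1 and DCN were at 0 throughout. The part of these markers in the results was not tested. In bulk RNA a change in the number of expressing cells and a change per cell cannot be told apart.

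Hypoxic cells given oxamate had far more RNA of the tested metallothionein members and of the exporter gene SLC30A1. MT2A, a metallothionein gene expressed in nearly all tissues, had 2045 and 1999 CPM in hypoxia with oxamate, against 529.9 and 493 CPM in hypoxia. MT1X had 473 and 476 CPM with oxamate, against 37.6 and 39.0 CPM without it. SLC30A1 had 77.6 and 78.7 CPM with oxamate, against 9.77 and 9.78 CPM without it. In each of these genes the libraries of the groups lay far apart, and the differences came to log2 fold changes of 1.98 ± 0.040 for MT2A (4.0-fold, edgeR adjusted p = 7.74e-16), 3.63 ± 0.041 for MT1X (12.4-fold, 2.69e-25) and 3.00 ± 0.059 for SLC30A1 (8.0-fold, 2.11e-21). By size of increase MT1X held rank 59 of 15554 genes, SLC30A1 rank 118 and MT2A rank 488. Among the other family members, MT1E had 598 and 608 CPM with oxamate against 178 and 168 CPM without it, and MT1F had 48.0 and 47.7 CPM against 14.1 and 13.4 CPM. Both rose by nearly the same amount, MT1E by 1.80 ± 0.036 and MT1F by 1.80 ± 0.062. MTF1 rose far less, with 32.6 and 30.5 CPM with oxamate against 23.7 and 25.4 CPM in hypoxia (log2 fold change 0.36 ± 0.063, edgeR adjusted p = 1.82e-05). SLC39A10 had 18.7 and 17.0 CPM with oxamate against 16.4 and 15.7 CPM without it, and its log2 fold change of 0.15 ± 0.081 did not pass (edgeR adjusted p = 0.0918). That gene passed as higher with RLE size factors (0.23), with the filter of 50 counts (0.19), in a fit of these 2 groups alone (0.26) and without the second oxamate library (0.32). In all, 6 of the 7 tested members rose and 0 fell, where 35.7% of all tested genes rose and 44.8% fell, 80.5% in either direction.

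MT1G and MT1M had too few counts to be tested in the main fit. MT1G had 2 and 4 counts in hypoxia with oxamate and lactate, 7 and 5 counts in hypoxia with oxamate, and 0 in all libraries of hypoxia and normoxia. Set against 3 counts for the whole hypoxia group, the 12 counts of MT1G with oxamate came to a 4.6-fold higher level. The counting error of those 12 counts was not included. MT1M had 0 counts in all 8 libraries, which allows between 0.0948 and 0.152 CPM per library at 3 counts.

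**Figure D2:**
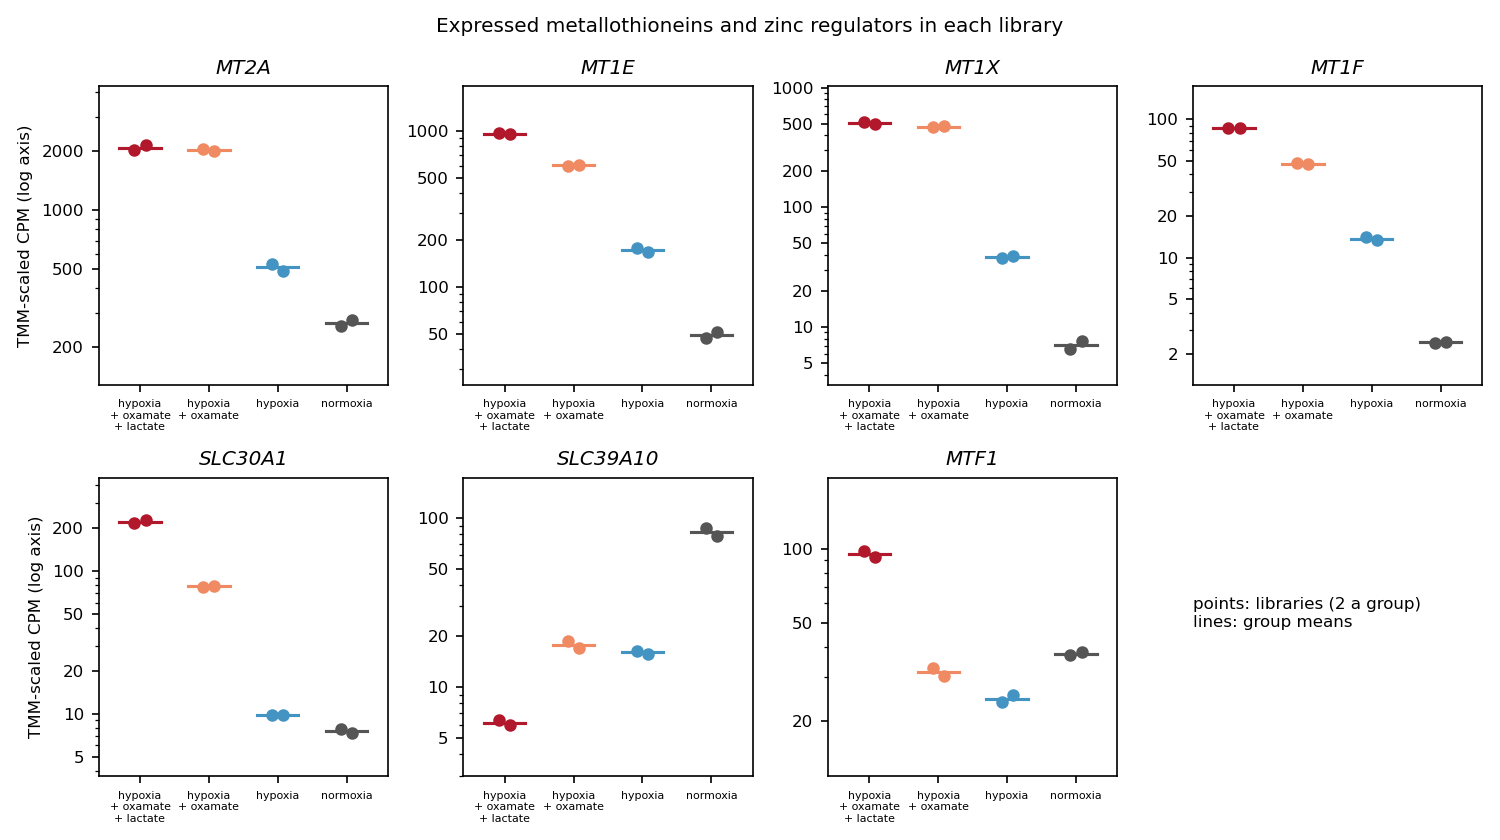
TMM-scaled CPM on log axes of the 7 tested members in each library. Points are libraries, lines are group means, and groups run from hypoxia with oxamate and lactate at the left to normoxia at the right. The metallothioneins and SLC30A1 step down from the oxamate groups to hypoxia and then normoxia, SLC39A10 is highest in normoxia and lowest with lactate, and MTF1 is highest with lactate.

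In hypoxia without drug the metallothioneins also rose, while SLC39A10 fell. MT2A had 529.9 and 493 CPM in hypoxia, against 258 and 275 CPM in normoxia, and rose by 0.94 ± 0.041 on the log2 scale (1.9-fold, edgeR adjusted p = 1.54e-11). MT1E had 178 and 168 CPM in hypoxia against 47.4 and 51.8 CPM in normoxia (1.80 ± 0.042). MT1X had 37.6 and 39.0 CPM in hypoxia against 6.58 and 7.68 CPM in normoxia (2.42 ± 0.065), and MT1F had 14.1 and 13.4 CPM against 2.42 and 2.46 CPM (2.49 ± 0.10). The fold change was thus smallest in the gene with the highest level, MT2A. SLC39A10 had 16.4 and 15.7 CPM in hypoxia, against 86.6 and 78.4 CPM in normoxia, a 5.1-fold lower level (-2.36 ± 0.067, edgeR adjusted p = 2.01e-18) that held rank 257 of 15554 genes by size of decrease. SLC30A1 had 9.77 and 9.78 CPM in hypoxia and 7.81 and 7.30 CPM in normoxia, and its rise of 0.37 ± 0.086 was the smallest among the members that rose. MTF1 fell, with 23.7 and 25.4 CPM in hypoxia against 37.1 and 37.9 CPM in normoxia (-0.61 ± 0.060). The libraries of hypoxia and normoxia did not overlap in any of these 7 genes, but the share of all genes without overlap was not counted. Altogether 5 tested members rose and 2 fell, where 36.7% of all tested genes rose and 36.8% fell, 73.5% in either direction.

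With lactate added to oxamate, SLC30A1 and MTF1 rose further and SLC39A10 fell, while MT2A and MT1X differed little. SLC30A1 had 217 and 227 CPM in hypoxia with oxamate and lactate, against 77.6 and 78.7 CPM with oxamate alone, a further 2.8-fold rise (1.51 ± 0.042, edgeR adjusted p = 2.19e-18). MTF1 had 97.9 and 93.0 CPM with lactate, against 32.6 and 30.5 CPM without it (1.59 ± 0.055, 3.0-fold). SLC39A10 fell to 6.35 and 5.95 CPM with lactate, against 18.7 and 17.0 CPM with oxamate alone (-1.54 ± 0.10, a 2.9-fold lower level). SLC30A1 thus rose and SLC39A10 fell in the same libraries, but their families were mixed. Of the tested SLC30 exporters 3 rose and 1 fell, and of the tested SLC39 importers 4 rose and 5 fell. MT1E rose to 969 and 950.3 CPM with lactate against 598 and 608 CPM with oxamate alone (0.67 ± 0.033), and MT1F to 87.0 and 86.8 CPM against 48.0 and 47.7 CPM (0.86 ± 0.051). MT2A did not pass, with 2027 and 2149 CPM against 2045 and 1999 CPM (0.047 ± 0.038, edgeR adjusted p = 0.305), and its value turned negative with upper quartile scaling (-0.14, passed as lower), RLE size factors, DESeq2, the filter of 50 counts and without either oxamate library. With the family counts summed to 1 row, the row that holds MT2A passed as higher (0.21, edgeR adjusted p = 9.44e-06). MT1X had 518 and 503 CPM against 473 and 476 CPM and passed narrowly as higher (0.11 ± 0.033, edgeR adjusted p = 0.00742). For MT1X the call ended with RLE size factors and DESeq2 (0.051 in each), with the filter of 50 counts (-0.011) and without the first (0.00036) or second (0.014) oxamate library, and with upper quartile scaling MT1X passed as lower (-0.084, edgeR adjusted p = 0.0369). In this comparison 5 of the 7 tested members rose and 1 fell, where 33.2% of all tested genes rose and 31.7% fell, 64.9% in either direction. Under upper quartile scaling the median of all genes moved by -0.19, with 4150 genes higher and 6340 lower against 5160 and 4927 with TMM.

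**Figure D3:**
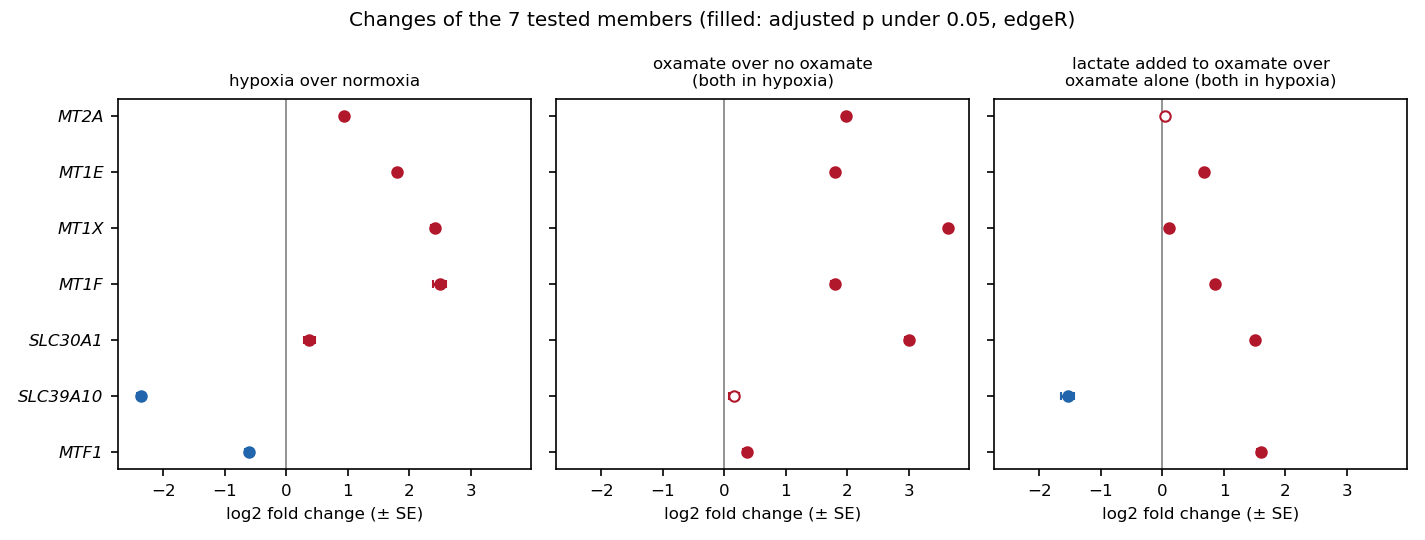
Fitted log2 fold changes of the 7 tested members in hypoxia over normoxia, oxamate over no oxamate in hypoxia, and lactate added to oxamate over oxamate alone, with SE bars. Filled points passed at an adjusted p under 0.05 in edgeR; SLC39A10 with oxamate and MT2A with lactate did not. The small MT1X and MT2A values with lactate changed sign with the scaling, including upper quartile scaling.

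The remaining comparisons use the same groups again, so they share libraries with those above and add no independent support. In hypoxia with oxamate and lactate against hypoxia, 6 tested members rose and 1 fell, where 38.5% of all genes rose and 40.2% fell, 78.6% in either direction (37.8% of the called genes were higher with upper quartile scaling, against 48.9% with TMM). SLC30A1 was higher by 4.51 ± 0.055 there, a 22.7-fold rise at rank 48 of 15554, MTF1 by 1.96 ± 0.056, and SLC39A10 was lower at -1.39 ± 0.10. In hypoxia with oxamate against normoxia, 5 rose and 2 fell, where 31.9% rose and 40.1% fell, 72% in either direction. MT1X was 66.1-fold higher there (6.05 ± 0.052), at rank 21 of 15554 genes, MT1F 19.6-fold, MT1E 12.1-fold, SLC30A1 10.4-fold and MT2A 7.6-fold. MTF1 was lower at -0.25 ± 0.059, a call that ended with DESeq2 (-0.17) and without the second oxamate library (-0.11). In hypoxia with oxamate and lactate against normoxia, 6 rose and 1 fell, where 35.9% rose and 36.8% fell, 72.7% in either direction. SLC39A10 reached its largest difference there, 13.4-fold lower (-3.75 ± 0.084), while SLC30A1 was 29.5-fold and MTF1 2.5-fold higher.

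Ordered by level, the 4 metallothioneins and SLC30A1 shared 1 order, hypoxia with oxamate and lactate above hypoxia with oxamate, then hypoxia, then normoxia. All neighbours in that order differed past the threshold except the top pair of groups in MT2A, and the call and order of the top pair in MT1X changed under the alternatives named above. MTF1 ran from 95.4 ± 3.41 CPM with oxamate and lactate through 37.5 ± 0.543 CPM in normoxia and 31.6 ± 1.51 CPM with oxamate to 24.6 ± 1.17 CPM in hypoxia. SLC39A10 ran from 82.5 ± 5.76 CPM in normoxia through 17.8 ± 1.18 CPM with oxamate and 16.0 ± 0.464 CPM in hypoxia, which did not differ past the threshold, to 6.15 ± 0.286 CPM with oxamate and lactate (SD, n = 2 each).

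Summed over the 21 metallothionein genes and pseudogenes of the list, the counts came to 0.325% and 0.333% of all counts in hypoxia with oxamate and lactate, 0.278% and 0.275% with oxamate, 0.0832% and 0.0784% in hypoxia and 0.0362% and 0.0388% in normoxia. The scaled sums were 3646 ± 61.2, 3148 ± 22.4, 736 ± 32.7 and 326 ± 15.8 CPM in that order (SD, n = 2 each). MT2A made up a smaller share of the family as the sum grew, with 56.3% and 58.2% of family counts with oxamate and lactate, 64.6% and 63.8% with oxamate, 69.8% and 69.1% in hypoxia, and 82.1% and 81.6% in normoxia. The widest exact (Clopper-Pearson) 95% interval of these shares, in the first normoxia library, ran from 81.2% to 82.9% and covers counting error only. MT1X held 14.4% and 13.6% of family counts with oxamate and lactate and 14.9% and 15.2% with oxamate. Its shares were lower without oxamate, at 4.95% and 5.47% in hypoxia and 2.09% and 2.28% in normoxia. MT1E held 26.9% and 25.8% with oxamate and lactate, 18.9% and 19.4% with oxamate, 23.4% and 23.6% in hypoxia and 15.1% and 15.4% in normoxia. No group overlapped another in the share of MT2A or of MT1E. With 2 libraries a group these shares were not tested.

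**Figure D4:**
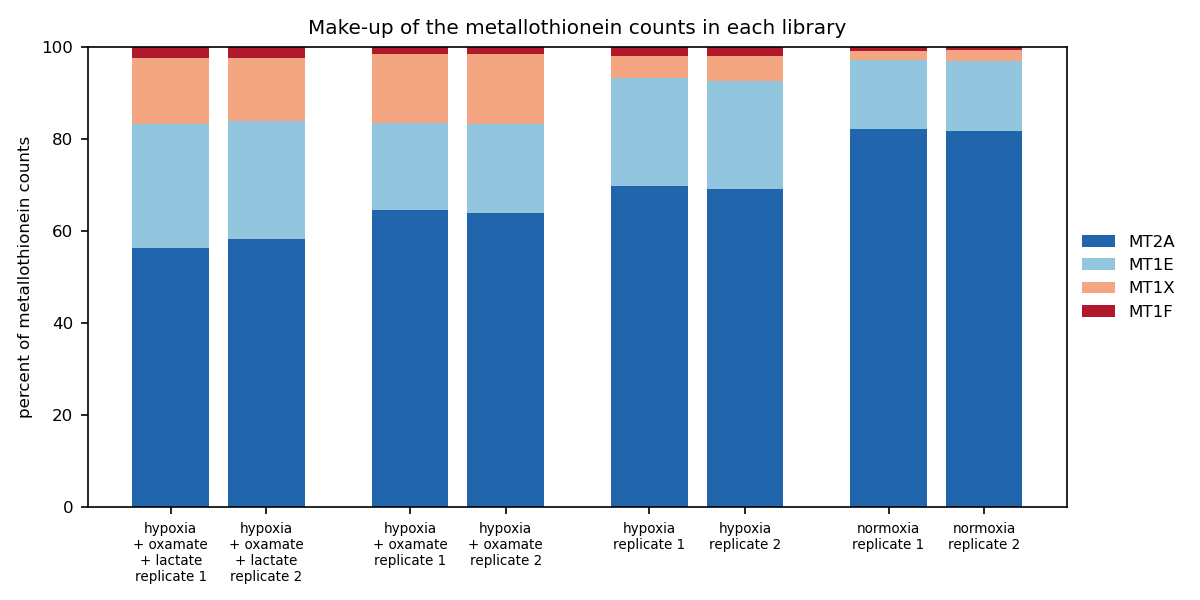
Percent of the metallothionein counts of each library that belonged to MT2A, MT1E, MT1X and MT1F, stacked to 100. MT2A takes 56.3% and 58.2% with oxamate and lactate and 82.1% and 81.6% in normoxia, and the MT1X band is widest in the oxamate groups.

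The metallothionein genes resemble each other, so reads may have been divided between them. Of all 50-base words in the GENCODE transcripts of a member, between 1.22% (MT1F) and 16.5% (MT1G) also occurred in another family gene, with 7.10% for MT1E, 3.64% for MT1X and 3.02% for MT2A. The few counts of MT1G are therefore uncertain. Per kilobase of annotated exon, MT2A stood at 1607 CPM with oxamate and lactate, 1557 CPM with oxamate, 394 CPM in hypoxia and 205 CPM in normoxia, above MT1E at 912, 573, 164 and 47.1 CPM per kilobase in the same groups. MTF1 stood between 3.06 and 11.9 CPM per kilobase. Exon lengths were those of all annotated transcripts together and may exceed the form in use.

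Of the 21 listed family genes, 5 were tested, and the non-member among them was MT1B, with 28 counts in hypoxia with oxamate and lactate, 18 with oxamate, 1 in hypoxia and 0 in normoxia. Its ratio of oxamate over hypoxia was 20.6 (95% counting interval 3.26 to 859). MT1A, MT1H, MT3 and MT4 had 0 counts in all libraries.

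Among 6 tested zinc exporters of the SLC30 family, SLC30A1 rose in hypoxia with oxamate against hypoxia and the other 5 fell, where 35.7% of all tested genes rose and 44.8% fell. The exporters that fell included SLC30A6, which forms a transporter of the early secretory pathway together with SLC30A5, at 13.0 ± 0.265 CPM with oxamate and 39.1 ± 0.0340 CPM in hypoxia (-1.58 ± 0.066), and SLC30A9 (-0.25 ± 0.042). Without the second oxamate library only 2 of the 6 fell. With lactate added to oxamate 3 exporters rose and 1 fell, where 33.2% of all genes rose and 31.7% fell. SLC30A7, a Golgi zinc transporter, had 53.7 ± 3.69 CPM with lactate and 25.1 ± 2.15 CPM with oxamate alone (1.09 ± 0.069), while SLC30A9, a mitochondrial zinc transporter, had 90.8 ± 4.96 CPM and 158 ± 2.32 CPM (-0.80 ± 0.045). In hypoxia against normoxia 2 rose and 3 fell, where 36.7% of all genes rose and 36.8% fell, with SLC30A7 at -0.94 ± 0.062 and SLC30A5 at -0.78 ± 0.053. SLC30A2, SLC30A3, SLC30A8 and SLC30A10 had 0 counts in all libraries.

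Importers of the SLC39 family were mostly lower in hypoxia than in normoxia, with 8 of 10 tested lower and 1 higher. Their median log2 fold change was -0.65 against 0.018 over all tested genes. SLC39A10 showed the largest of these decreases. Over all tested genes 36.7% rose and 36.8% fell in hypoxia. SLC39A14, which also carries iron and manganese, had 44.8 ± 1.23 CPM in hypoxia and 104 ± 3.87 CPM in normoxia (-1.22 ± 0.047), and SLC39A7, which releases zinc from the endoplasmic reticulum, was lower at -0.92 ± 0.043. With oxamate 7 of the 10 rose and 2 fell, where 35.7% of all tested genes rose and 44.8% fell. The median of the 10 was 0.31 against -0.20 over all genes. SLC39A14 returned to 101 ± 4.87 CPM (1.17 ± 0.048) and SLC39A6 rose by 0.96 ± 0.043, whereas SLC39A10 did not pass. With lactate added, 4 rose and 5 fell, led by SLC39A10 among the decreases, where 33.2% of all genes rose and 31.7% fell. SLC39A9 (0.64 ± 0.041) and SLC39A7 (0.62 ± 0.044) were higher there. SLC39A14 passed as higher (0.12 ± 0.045), but its value ran from -0.068 to 0.14 over 16 alternatives and lost or turned its call in 6 of them. SLC39A3 fell in hypoxia (-1.75 ± 0.085), rose with oxamate (1.69 ± 0.087) and fell with lactate added (-0.73 ± 0.082).

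**Figure D5:**
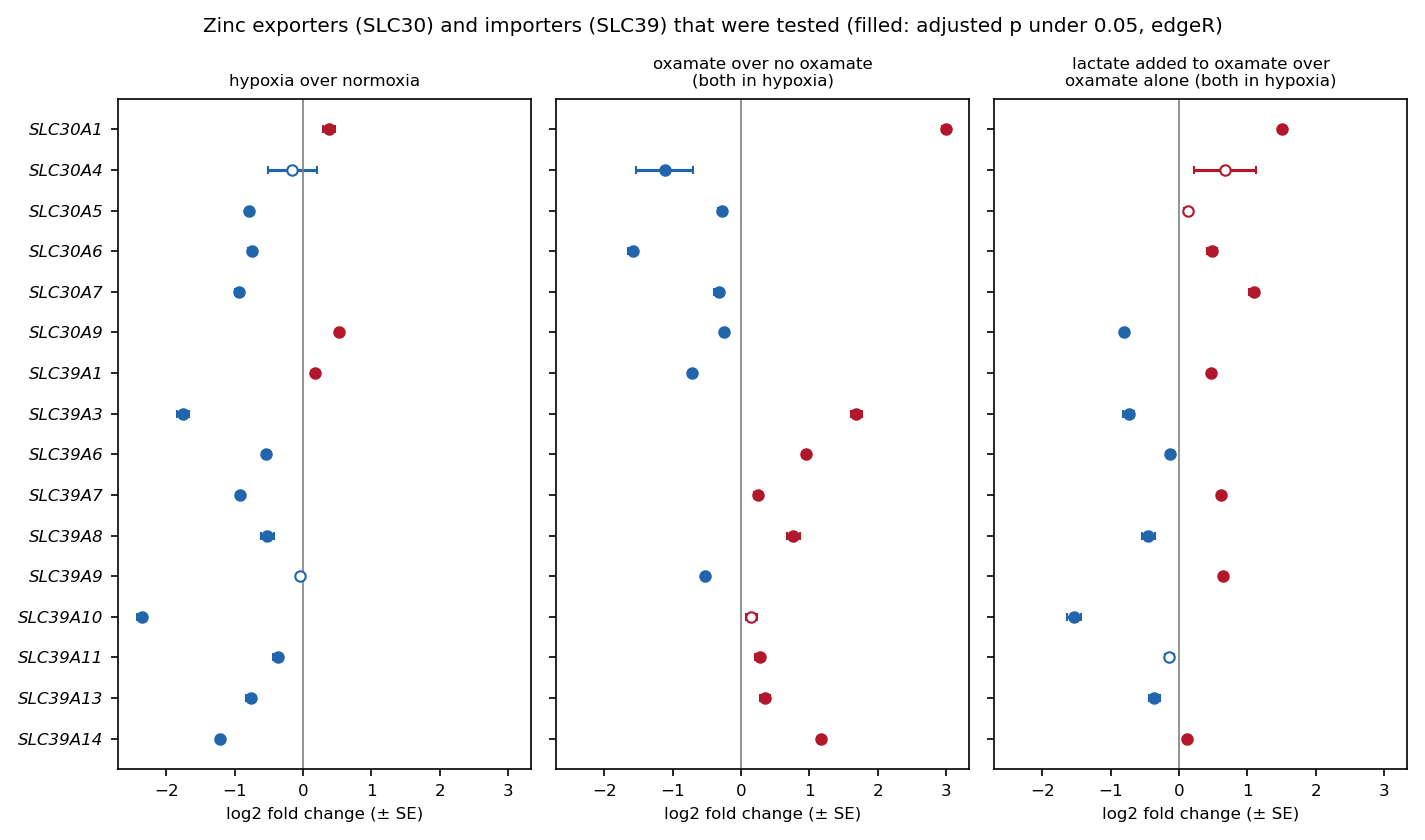
Fitted log2 fold changes with SE of the 6 tested SLC30 exporters and the 10 tested SLC39 importers in the same 3 comparisons as for the members; filled points passed in edgeR. SLC30A1 is the only exporter to the right of 0 with oxamate, and SLC39A10 lies farthest left of all in the hypoxia and lactate panels; the small SLC39A14 value with lactate changed sign under 2 of 16 alternatives.

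ZNF658, a second zinc-sensing transcription factor, fell in hypoxia against normoxia as MTF1 did, but went the other way with oxamate against hypoxia. It had 0.809 ± 0.0659 CPM in hypoxia with oxamate and lactate, 0.476 ± 0.0707 CPM with oxamate, 6.40 ± 0.396 CPM in hypoxia and 12.0 ± 0.362 CPM in normoxia (SD, n = 2 each). It fell in hypoxia against normoxia (-0.90 ± 0.13) and fell further with oxamate (-3.74 ± 0.21), and with lactate added its value of 0.77 ± 0.32 did not pass (edgeR adjusted p = 0.0581). Its counts are uncertain where related zinc finger genes share its sequence.

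Lists of genes from neighbouring pathways were counted beside the members. Over all tested genes 33.2% rose and 31.7% fell with lactate added to oxamate. The all-gene shares were 35.7% and 44.8% with oxamate, and 36.7% and 36.8% in hypoxia against normoxia. Of 12 metal and oxidant stress genes, 10 rose and 2 fell with lactate added to oxamate (9 to 10 and 1 to 2 over the alternatives). The median log2 fold change of the 12 was 1.07 against -0.018 over all genes. GCLC, the catalytic subunit of glutathione synthesis, had 317 ± 4.29 CPM with lactate and 97.6 ± 0.971 CPM with oxamate alone (1.70 ± 0.037), and TXNRD1, encoding thioredoxin reductase, rose by 1.75 ± 0.036. HMOX1, the metal-inducible heme oxygenase gene, had 12.6 ± 1.36 CPM with lactate and 4.26 ± 0.427 CPM with oxamate alone (1.57 ± 0.14), and did not pass with oxamate against hypoxia (-0.24 ± 0.15). With oxamate against hypoxia 9 of the 12 rose and 0 fell, with NQO1 at 1.49 ± 0.029. Over the alternatives 7 to 10 rose there, and 1 fell with upper quartile scaling. In hypoxia against normoxia 1 rose and 10 fell. HSPA1A and HSPA1B of this list are near-identical copies and uncertain. HMOX1 was named after its values were seen.

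Copper transport and chaperone genes were mixed, with 8 of 12 higher and 3 lower with oxamate (SOD1 0.77 ± 0.037, SCO1 0.82 ± 0.038). With lactate added 3 were higher and 6 lower (ATP7A 1.28 ± 0.090, COX11 -0.53 ± 0.050), and in hypoxia 4 in each direction. The counts with lactate ran from 2 to 3 higher and from 6 to 9 lower over the alternatives. SCO1 passed as higher with lactate in the main fit (0.087), but its value ran from -0.10 to 0.11 over 16 alternatives. For this list and those below, the all-gene shares were 35.7% higher and 44.8% lower with oxamate. They were 33.2% and 31.7% with lactate added, and 36.7% and 36.8% in hypoxia. Of 8 tested glucocorticoid-induced genes, 2 rose and 5 fell with oxamate (3 fell with DESeq2 and without the second oxamate library), with SGK1 at 4.49 ± 0.069 and TSC22D3 at -3.68 ± 0.083. With lactate added 5 rose and 3 fell, among them the circadian repressor gene PER1 (3.04 ± 0.046), and in hypoxia 4 rose and 3 fell. The 5 tested hypoxia reference genes all rose in hypoxia. With oxamate 1 of them rose and 4 fell, with CA9 at -4.93 ± 0.070, and with lactate added all 5 rose, with VEGFA at 2.29 ± 0.062. The gene that rose in both hypoxia and oxamate was ADM (3.03 ± 0.038 and 0.95 ± 0.032), which encodes the vasodilator peptide adrenomedullin.

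Genes with the nearest profile were found by the distance between mean-centred log2 CPM over the 8 libraries, among 10599 protein-coding genes. Nearest to MT2A were KLF6 (distance 0.65, Pearson r = 0.985), TNFAIP3 (0.80) and RSRC2 (1.02). Nearest to MT1X were ATF3 (1.64, r = 0.993), GADD45A (2.12) and MT1F (2.17). Nearest to SLC30A1 were DUSP10 (1.01, r = 0.988), ATF3 (1.49) and GDF15 (1.52). SLC39A10 lay nearest to ZNF629 (0.80, r = 0.982), HOXA7 (0.83) and E2F2 (0.84). MTF1 lay nearest to FBXO45 (0.22, r = 0.996), SOCS6 (0.26) and C1orf52 (0.30). The distance depends on the range of a gene's levels, so distances cannot be compared between the 5 genes. FBXO45 averaged 176 CPM with oxamate and lactate, 57.2 CPM with oxamate, 41.2 CPM in hypoxia and 72.3 CPM in normoxia. These likenesses rest on 8 libraries in 4 groups and are descriptions.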

How the data were processed

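The authors deposited 1 table of raw counts per gene, whole numbers without normalization in all 8 libraries. Per the submitters' processing notes, which give no roles, the tools were RSEM 1.3.3, STAR 2.7.8a and FastQC 0.11.9 and the build GRCh38 or hg38; counts may therefore be rounded estimates. No source used here states strand, annotation or filters.

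Analysis used R 4.3.3 and edgeR 4.0.16. Genes were kept by filterByExpr (minimum count 10), scaled by TMM and fitted by a robust quasi-likelihood model to all 8 libraries with 4 group means, so 4 residual degrees of freedom remained. The 6 comparisons were tested two-sided, with Benjamini-Hochberg adjustment over all tested genes. SE was derived from the F statistic. Alternatives were RLE and upper quartile scaling, no filter, at least 50 counts in 2 libraries, DESeq2 1.42.0, the replicate number as a block, the compared groups alone, the metallothionein family as 1 row, and leaving out each library. The method was also run on simulated data in which few genes changed, and only in the hypoxia group. Most tested genes passed in the real comparisons, so that run cannot show how the calls hold here. Replicates differed by more than sampling noise (chi-square per degree of freedom 1.84 to 4.78). Members, lists and the naming rule (the members, all SLC30, SLC39, zinc factor and metallothionein genes, up to 2 passing non-members per other list by smallest p, and 3 nearest profiles for 5 members) were chosen with earlier results of these data known. Positions are from GENCODE release 29 and upstream sequences from RefSeq.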

Additional observations from a re-analysis of the deposited data

How the results depend on the processing

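No count of passing members or genes moved by over 1.5 times under any alternative. Members passing ranged without each library in turn from 7 to 7 in hypoxia against normoxia, 6 to 7 with oxamate against hypoxia and 5 to 6 with lactate added to oxamate. With lactate added to oxamate, the log2 fold change of MT2A (0.047) was -0.0089 with RLE size factors and with DESeq2, -0.14 with upper quartile scaling and -0.070 with the filter of 50 counts, and ran from -0.067 to 0.089 without each library in turn (-0.067 and -0.038 without an oxamate library). That of MT1X (0.11) was -0.084 with upper quartile scaling and -0.011 with the filter of 50 counts. The cause was not tested. With the family summed to 1 row, MT2A, MT1X, MT1E and MT1F all take the family value by construction (0.21 with lactate added to oxamate, where MT2A then passed), and 11 of 42 member values moved by over 1.5 times. Of the other member values none moved by that much under any alternative, and SLC39A10 with oxamate, MTF1 with oxamate against normoxia and MT1X with lactate added also changed their call. Of 1152 list counts under alternatives, 19 moved by over 1.5 times.

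The replicate block changed no member's call, with 7 members passing in hypoxia against normoxia, and 5620 genes higher and 5681 lower there (5702 and 5727 without it). Upper quartile scaling moved the all-gene median log2 fold change by 0.11 in hypoxia against normoxia, -0.26 with oxamate and lactate against hypoxia and -0.15 against normoxia; the filter of 50 counts moved it by 0.16 with oxamate against hypoxia. Deviations of same-numbered libraries correlated between -0.050 and 0.012 across groups. These values cannot tell whether same-numbered libraries shared a culture or a day. MT1G and MT1M had too few counts to be tested in the main fit. Without the filter MT1G entered the fit on its few counts. Across the alternatives up to 8 members passed with oxamate and lactate against hypoxia or normoxia, and with oxamate against normoxia. In the main fit 7 members passed in each of these comparisons.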
